A study of Mus musculus with 203 samples.

Results

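The response of Kdm1a knockdown RAW264.7 macrophages to IL4 was measured in 8 RNA-seq libraries, 4 without and 4 with the cytokine, out of 16 libraries of this RNA-seq experiment and 203 samples in the series. RAW264.7 cells are an established line of macrophages from BALB/c mice. They carried a lentiviral short hairpin RNA against Kdm1a (shKDM1A), were kept as a puromycin-selected line, and received either nothing or IL4 for 6 h (20 ng/ml) before RNA was extracted. The matching shGFP line, which carries a hairpin against GFP, was treated alike (4 libraries without and 4 with IL4) and serves here only to show where the knockdown cells responded differently. Each target was hit with 1 hairpin, so an effect of the hairpin other than on Kdm1a and a difference between the 2 selected lines cannot be told apart from the knockdown. All genes with a deposited log2 value of at least 1 in at least 4 of the 16 libraries were included, 12905 of 25094 listed. No gene was picked by its response.

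IL4 is a T helper type 2 cytokine that drives alternative activation of macrophages, a state known for lectin and scavenger receptors and growth factor production. Its receptor activates JAK kinases, which phosphorylate the transcription factor STAT6, and STAT6 acts on chromatin that PU.1, AP-1 and C/EBP factors have opened. KDM1A (LSD1) is a histone demethylase that removes methyl groups from histone H3 lysine residues and works in the CoREST corepressor complex. The comparison asks how the IL4 programme of these cells looks when KDM1A is reduced.

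The libraries held 17554721 to 27782568 tags. Values are the log2 values per gene and library that the authors deposited, moderated so that weakly expressed genes are drawn towards their mean, and fold changes of such genes are therefore understated. Pairs of libraries within the shKDM1A IL4 group had a median absolute difference over genes of 0.0392 to 0.0561, against 0.0358 to 0.0488 within the 3 other groups, and no pair was identical. The deviations moved with exon length. In shKDM1A IL4 replicates 1 and 3, genes with more than 6000 bases of exon had a median deviation from the group mean of -0.0659 and -0.0466, and in replicates 2 and 4 of 0.0628 and 0.0528. Long genes named here with the same split include Itgav, Slc5a3, Sema5a, Cdk6, Myo10, Flt1, Gas7, Gfod1, Gse1 and Polr1a. Igf1 and Lss do not show it. The part of exon length in the results was addressed by removing a length trend from each library and by leaving out either pair of replicates, all chosen after the data were seen. Of 16 macrophage marker symbols 14 were tested, and none of those in the table was at 0 in all libraries. With IL4, 4 of them rose and 7 fell, against 13.6% and 13.5% of all genes tested, and their summed level on the linear scale was 332227 to 341380 in the control and 299180 to 321420 in the IL4 libraries. Most of this sum and of its fall came from Lyz2 and Lyz1, near copies that may share reads, while Csf1r and Adgre1 were among the rises. The part of this shift in other results was not tested. Of the markers of T, B, fibroblast, epithelial or endothelial, granulocyte or mast, and erythroid cells, 8 passed the filter and none was called changed, with the highest log2 value at 5.92 and Ms4a1, Col1a2, Col3a1, Epcam and S100a9 at 0 in all libraries. In bulk RNA, fewer expressing cells and less RNA per cell cannot be told apart.

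**Figure D1:**
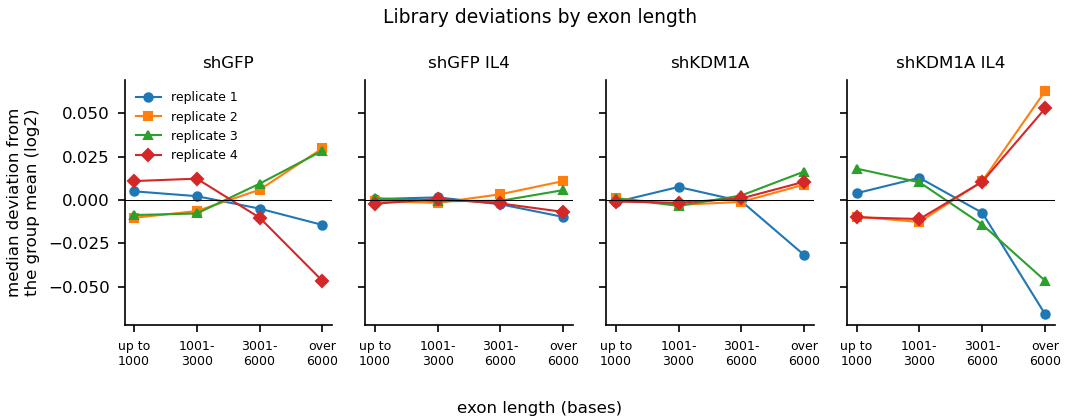
Median deviation of each library from the mean of its group (log2, vertical axis) for genes in 4 bands of exon length (bases, horizontal axis), 1 line per library and 1 panel per group. The shKDM1A IL4 libraries split into replicates 1 and 3, down to -0.0659 for genes over 6000 bases, and replicates 2 and 4, up to 0.0628, a wider split than in the other groups.

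Promoter sequences of 3 sets of genes that the results below turn on are given first. They come from RefSeq (GRCm38.p6, 300 bases, from 250 before to 50 after the start site), which held 32851 promoters and 1 or more for 10022 of the genes tested. Gene coordinates elsewhere in the text are those of the deposited table, in mm9. Lss and Insig1 stand for the sterol synthesis genes, which fell together. The capitals mark CCAAT, the NF-Y box, which reads ATTGG where it lies on the other strand.
Lss, chr10:76531355-76531654, plus strand: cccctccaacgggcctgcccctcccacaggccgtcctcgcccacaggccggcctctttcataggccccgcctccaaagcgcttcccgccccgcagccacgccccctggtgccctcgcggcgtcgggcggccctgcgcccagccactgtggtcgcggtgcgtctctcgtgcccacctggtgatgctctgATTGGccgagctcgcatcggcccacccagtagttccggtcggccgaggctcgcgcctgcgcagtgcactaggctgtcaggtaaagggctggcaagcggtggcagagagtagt
Insig1, chr5:28071162-28071461, plus strand: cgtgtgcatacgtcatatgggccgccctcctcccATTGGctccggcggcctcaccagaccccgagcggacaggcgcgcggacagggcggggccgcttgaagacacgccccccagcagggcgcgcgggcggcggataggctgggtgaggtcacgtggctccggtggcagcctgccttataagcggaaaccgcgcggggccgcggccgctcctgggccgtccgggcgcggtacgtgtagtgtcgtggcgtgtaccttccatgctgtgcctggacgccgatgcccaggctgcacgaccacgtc
The box was searched on both strands and lay at -62 in Lss and -216 in Insig1 from the start site. It was present in 16 of the 17 sterol synthesis genes with a promoter in the table (94.1%), against 37.4% of all promoters and 43.2% of those of the genes tested. The box was also present in 23 of 31 promoters of the ATF4 and unfolded protein response list (74.2%) and in 5 of the 9 promoters in the table among the 10 largest rises (55.6%). Of the alternative activation markers it was present in 5 of 15 (33.3%).

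Trib3 and Asns stand for targets of the amino acid stress factor ATF4, and their IL4 response differed between the lines. The capitals mark TGATGNAA, the C/EBP-ATF response element.
Trib3, chr2:152344011-152344310, minus strand: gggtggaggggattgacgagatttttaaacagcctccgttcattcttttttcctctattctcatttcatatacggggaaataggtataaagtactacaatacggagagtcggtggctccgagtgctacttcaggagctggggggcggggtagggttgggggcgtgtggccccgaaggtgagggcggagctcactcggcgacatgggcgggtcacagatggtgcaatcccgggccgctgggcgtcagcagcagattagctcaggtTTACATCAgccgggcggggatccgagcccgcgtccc
Asns, chr6:7693160-7693459, minus strand: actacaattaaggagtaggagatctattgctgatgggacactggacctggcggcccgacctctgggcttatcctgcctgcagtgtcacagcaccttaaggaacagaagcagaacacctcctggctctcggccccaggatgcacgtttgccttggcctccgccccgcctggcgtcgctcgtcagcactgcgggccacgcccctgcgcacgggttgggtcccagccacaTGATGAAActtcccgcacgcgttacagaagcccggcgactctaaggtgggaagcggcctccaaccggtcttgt
It lay at 15 in Trib3 and -23 in Asns and was found, on either strand, in 6 of 31 promoters of the ATF4 and unfolded protein response list (19.4%: Asns, Chac1, Gars, Herpud1, Slc7a11 and Trib3), against 3.97% of all promoters and 2.90% of those tested. A different 6 (Calr, Creld2, Dnajc3, Hsp90b1, Hspa5 and Pdia6) held CCAAT and CCACG with 9 bases between them, the endoplasmic reticulum stress element, against 0.119% of all promoters and 0.15% of those tested. This element contains CCAAT and so overlaps with the first motif.

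Cd36 and Clec7a are surface receptors among the 10 largest rises. The capitals mark TTC and GAA with 4 bases between them, the STAT6 spacing, which reads the same on both strands.
Cd36, chr5:17835847-17836146, minus strand: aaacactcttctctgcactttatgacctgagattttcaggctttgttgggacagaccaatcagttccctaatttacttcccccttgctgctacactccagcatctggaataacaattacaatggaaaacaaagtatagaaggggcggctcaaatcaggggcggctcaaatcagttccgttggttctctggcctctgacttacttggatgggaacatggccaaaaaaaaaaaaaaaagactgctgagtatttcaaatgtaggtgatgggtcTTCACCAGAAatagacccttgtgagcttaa
Clec7a, chr6:129472730-129473029, minus strand: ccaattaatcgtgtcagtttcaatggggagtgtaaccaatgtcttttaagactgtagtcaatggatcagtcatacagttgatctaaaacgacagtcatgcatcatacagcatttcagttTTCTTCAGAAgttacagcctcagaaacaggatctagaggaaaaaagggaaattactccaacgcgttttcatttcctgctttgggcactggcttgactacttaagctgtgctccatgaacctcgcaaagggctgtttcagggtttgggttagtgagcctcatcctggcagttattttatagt
The match lay at 21 in Cd36 and -131 in Clec7a, the first of 2 promoters listed for that gene. These were 2 of the 9 largest rises with a promoter in the table (22.2%), against 6.95% of all promoters and 6.71% of those tested. Motif matches are descriptions of these windows and not measured binding sites.

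Kdm1a (chr4:136106448-136158638) was first examined in all libraries. Its log2 values were 10.36, 10.32, 10.23 and 10.29 in shKDM1A cells and 10.32, 10.33, 10.34 and 10.28 with IL4. The shKDM1A groups overlapped, 0.02 apart on the log2 scale (standard error 0.028, adjusted p = 0.71 from limma), and both lay below shGFP cells at 11.18 ± 0.04 (SD, n = 4) without and 11.10 ± 0.03 (SD, n = 4) with IL4. The knockdown was thus present in every shKDM1A library, was partial at the mRNA level, and did not shift measurably with IL4.

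IL4 changed 3497 of 12905 genes in shKDM1A cells at an adjusted p under 0.05 (limma with Benjamini-Hochberg adjustment). Of these, 1752 (13.6% of the genes tested) were higher and 1745 (13.5%) lower. Most changes were small, with a median absolute log2 fold change of 0.15 among the called genes. Only 84 called genes rose by more than 0.5 on the log2 scale and 57 fell by more than that, and 18 and 3 passed 1. The 4 IL4 libraries lay all above the 4 control libraries for 1677 genes (13.0%) and all below for 1639 (12.7%). The median over all genes tested was -0.0025, which the scaling of the libraries to each other keeps near 0, and with libraries centred on their median 2025 genes were higher and 1560 lower.

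**Figure D2:**
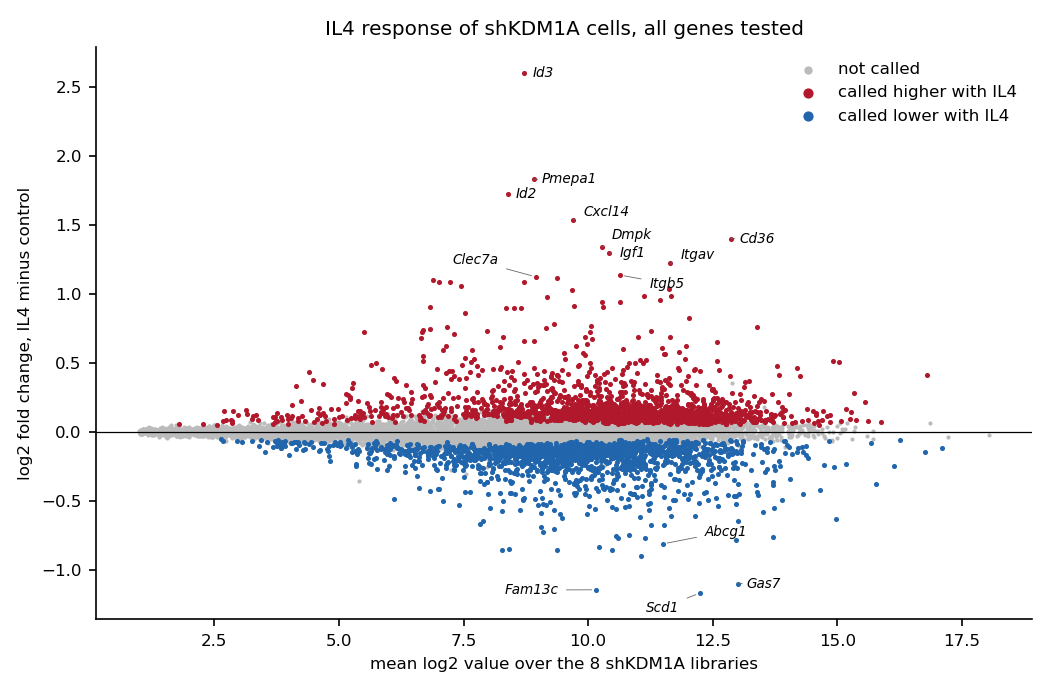
Log2 fold change of each gene with IL4 in shKDM1A cells (vertical axis) against its mean log2 value over the 8 shKDM1A libraries (horizontal axis), 1 point per gene, red for the 1752 called higher and blue for the 1745 called lower. Most called genes lie within 0.5 of 0, and Id3, at 2.60, stands above all others.

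The 10 largest rises among genes whose groups did not overlap were Id3, Pmepa1, Id2, Cxcl14, Cd36, Dmpk, Igf1, Itgav, Itgb5 and Clec7a. Id3 (chr4:135699737-135701307) encodes an inhibitor of helix-loop-helix transcription factors. Its log2 values were 7.52, 7.47, 7.32 and 7.35 without and 10.01, 10.02, 10.04 and 9.99 with IL4, a 6.05-fold rise (log2 fold change 2.60, standard error 0.048, adjusted p = 1.7e-15). All 4 IL4 libraries lay more than 2 log2 units above every control library. Id2 (chr12:25778664-25780957), of the same family, rose from 7.66, 7.55, 7.49 and 7.40 to 9.36, 9.23, 9.26 and 9.14, by 1.72 (standard error 0.057, adjusted p = 1.9e-12). Id1 (chr2:152561987-152563146) rose from 6.33 ± 0.04 to 7.43 ± 0.10 (SD, n = 4), by 1.10 (adjusted p = 9.6e-11), so 3 Id genes moved together.

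Pmepa1 (chr2:173049966-173102034), a membrane protein known as a TGF-beta target and inhibitor, had log2 values of 8.07, 7.94, 7.99 and 7.97 without and 9.91, 9.78, 9.85 and 9.75 with IL4. The rise was 1.83 on the log2 scale (3.55-fold, standard error 0.051, adjusted p = 2.1e-13). Cxcl14 (chr13:56390006-56397912), a chemokine, rose from 8.94, 8.97, 8.89 and 8.93 to 10.52, 10.41, 10.46 and 10.48, by 1.53 (standard error 0.028, adjusted p = 1.6e-15). Igf1 (chr10:87321797-87399792), an insulin-like growth factor made by alternatively activated macrophages, rose from 9.75, 9.80, 9.82 and 9.72 to 11.02, 11.07, 11.10 and 11.07. The rise was 1.29 on the log2 scale (2.45-fold, standard error 0.033, adjusted p = 1.2e-13). In all 3 of these secreted or TGF-beta related genes the gap between groups was many times the spread within them.

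Cd36 (chr5:17287508-17355610), the scavenger receptor for oxidized lipoproteins, is one of the genes whose promoter is given above. Its log2 values were 12.11, 12.18, 12.17 and 12.18 without and 13.56, 13.56, 13.55 and 13.58 with IL4, a 2.64-fold rise (log2 fold change 1.40, standard error 0.021, adjusted p = 2.4e-16). Clec7a (chr6:129411609-129422803) encodes Dectin-1, the receptor for fungal beta-glucan. It rose from 8.35, 8.42, 8.43 and 8.33 to 9.50, 9.48, 9.49 and 9.56, by 1.12 (standard error 0.047, adjusted p = 2.6e-11). The subunits of the integrin alpha-v beta-5, which binds vitronectin, rose together. Itgav (chr2:83564554-83647074) went from 10.97, 11.04, 11.13 and 11.01 to 12.09, 12.40, 12.17 and 12.38, by 1.22 (adjusted p = 3.3e-10). Itgb5 (chr16:33829751-33949424) went from 10.08 ± 0.02 to 11.21 ± 0.03 (SD, n = 4), by 1.13 (adjusted p = 2.4e-15). The wider spread of Itgav is the split of replicates 1 and 3 from 2 and 4 described above, and 9.03% of its exon length overlaps an antisense gene that counting on both strands does not separate. Dmpk (chr7:19669198-19679169), a serine/threonine kinase, rose from 9.60 ± 0.08 to 10.94 ± 0.02 (SD, n = 4), by 1.34 (adjusted p = 1.7e-13).

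The 10 largest falls were Scd1, Fam13c, Gas7, Slc5a3, Phyhipl, St3gal6, Gfod1, Slc40a1, Sema5a and Abcg1. Scd1 (chr19:44468940-44482199) encodes stearoyl-CoA desaturase, which makes monounsaturated fatty acids and is a target of SREBP-1 and LXR. Its log2 values were 12.78, 12.83, 12.84 and 12.85 without and 11.57, 11.75, 11.60 and 11.71 with IL4, a fall by 1.17 on the log2 scale (standard error 0.040, adjusted p = 3.1e-12). Reads from the paralog Scd2 may be shared with it. Abcg1 (chr17:31194639-31254926), the transporter that exports cholesterol to HDL, fell from 11.92, 11.89, 11.90 and 11.93 to 11.08, 11.14, 11.06 and 11.12, by 0.81 (standard error 0.024, adjusted p = 5.6e-13). Both are lipid genes, and the lack of overlap between groups was a condition for the 10 largest falls.

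Gas7 (chr11:67400002-67502494), an actin-associated adaptor, had log2 values of 13.52, 13.54, 13.59 and 13.58 without and 12.41, 12.52, 12.44 and 12.47 with IL4 (log2 fold change -1.10, adjusted p = 1.2e-13). Slc40a1 (chr1:45964915-45982439) encodes ferroportin, the exporter of iron. It went from 8.78, 8.87, 8.85 and 8.87 to 8.12, 7.99, 7.92 and 7.95 (log2 fold change -0.85, standard error 0.048, adjusted p = 1.0e-09). Slc5a3 (chr16:92058567-92087718), the sodium-coupled myo-inositol transporter, went from 11.52 ± 0.03 to 10.62 ± 0.15 (SD, n = 4) with a log2 fold change of -0.90 (adjusted p = 2.4e-09). Sema5a (chr15:32174568-32626096), a semaphorin, went from 10.63 ± 0.06 to 9.79 ± 0.16 (SD, n = 4) with -0.83 (adjusted p = 4.1e-08). For the sialyltransferase gene St3gal6 (chr16:58469855-58523539) the log2 fold change was -0.85 (adjusted p = 5.0e-12), and 64.3% of its exon length overlaps Dcbld2, so its reads are uncertain. Gfod1 (chr13:43290888-43399541) had -0.85 (adjusted p = 1.5e-10). Fam13c (chr10:69903416-70021480) and Phyhipl (chr10:70020434-70062039), with -1.14 (adjusted p = 3.7e-13) and -0.86 (adjusted p = 1.3e-10), lie on opposite strands and share 1050 bases of exon, so the reads of one may have been counted for the other.

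**Figure D3:**
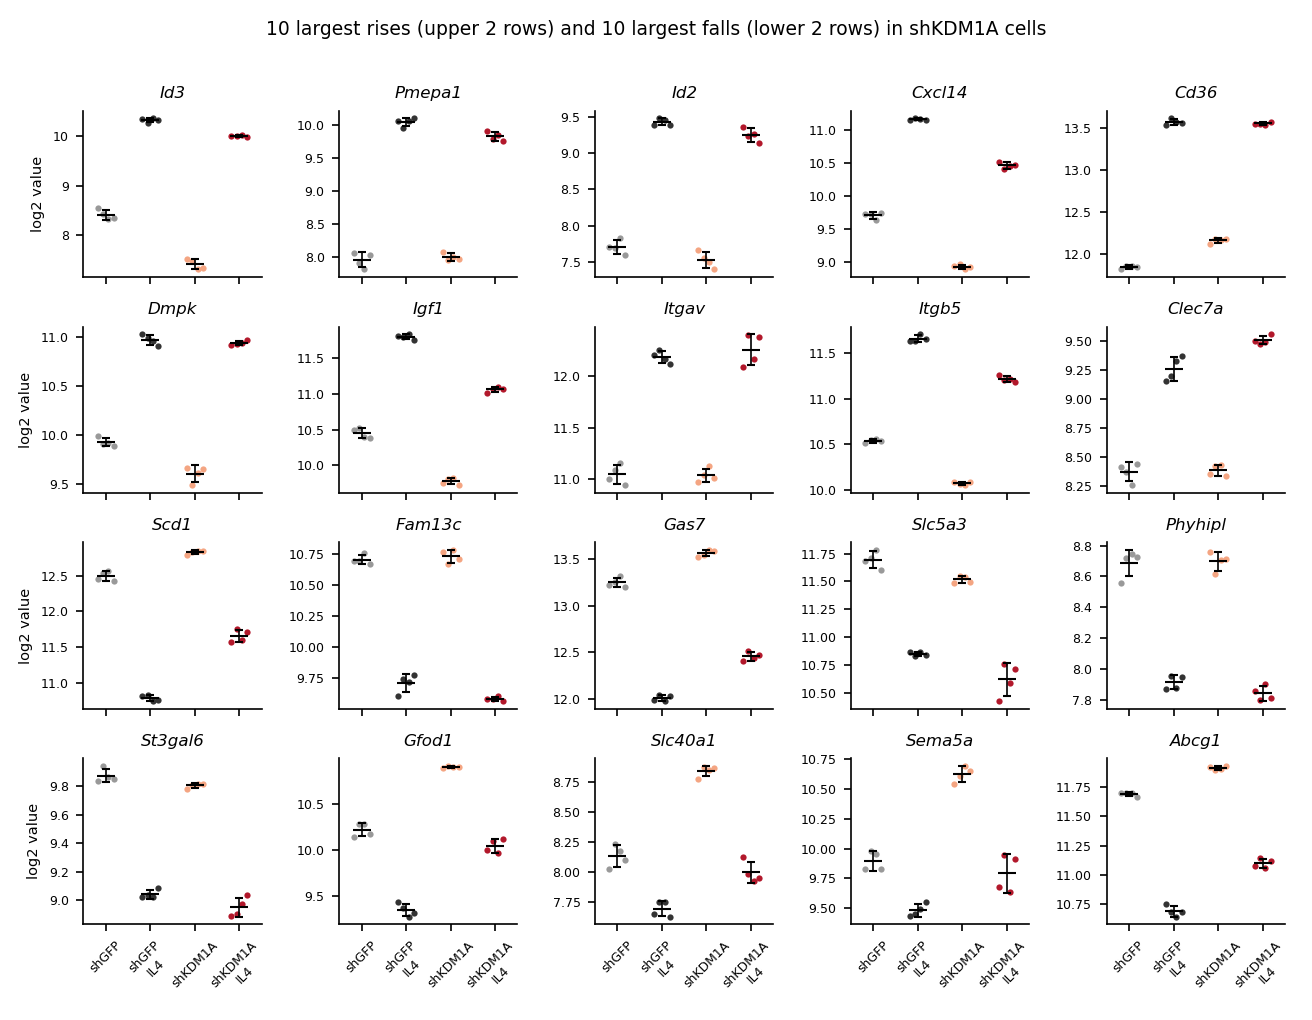
Deposited log2 values (vertical axis) of the 10 largest rises and the 10 largest falls in each of the 16 libraries, 1 point per library, with the mean and SD (bar) of the 4 libraries of each group. In every panel the 4 shKDM1A IL4 libraries lie apart from the 4 shKDM1A control libraries, as the choice of genes required. The shGFP groups moved in the same direction.

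Alternative activation markers were the list with the highest median. Of 36 markers 22 were tested, and 14 rose and 1 fell, against 13.6% and 13.5% of all genes tested, with a median log2 fold change of 0.32 against -0.0025 over all genes. Several of these markers were named as IL4 targets by the study, so the list is not independent of these data. Ptgs1 (chr2:36085946-36107791), cyclooxygenase 1 of prostaglandin synthesis, had log2 values of 6.76, 6.71, 6.72 and 6.56 without and 7.79, 7.79, 7.79 and 7.72 with IL4. It rose by 1.08 (standard error 0.038, adjusted p = 3.1e-12). Mrc1 (chr2:14151041-14253650), the mannose receptor, rose from 5.49, 5.50, 5.53 and 5.47 to 5.95, 5.94, 6.07 and 6.03, by 0.50 (standard error 0.032, adjusted p = 5.3e-09). On the moderated scale both responses were smaller than in shGFP cells, as described with the differences between the lines.

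Flt1 (chr5:148373180-148537587), a VEGF receptor, went from 8.88, 8.79, 8.86 and 8.62 to 9.45, 9.62, 9.48 and 9.61, a rise by 0.75 (standard error 0.050, adjusted p = 7.4e-09). Egr2 (chr10:67000617-67004936), the zinc finger factor that carries the late IL4 programme, went from 7.01, 7.17, 7.05 and 7.17 to 7.96, 7.87, 8.04 and 7.97, a rise by 0.86 (standard error 0.048, adjusted p = 8.8e-10). In both genes every IL4 library was above every control library. Ccl2 (chr11:81849079-81850954), a monocyte chemokine, rose from 6.80 ± 0.05 to 7.39 ± 0.03 (SD, n = 4), by 0.59 (adjusted p = 2.4e-09). The lectin gene Mgl2 (chr11:69943859-69951044) rose by 0.13 (adjusted p = 0.0026) from a low level of 3.08 ± 0.01 to 3.21 ± 0.02 (SD, n = 4). Other members that rose were Il4i1 by 0.72, Myc by 0.68, Tgm2 by 0.44 and Irf4 by 0.39, and the member that fell was Atp6v0d2, by 0.36 (adjusted p = 6.0e-05).

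Some genes tied to IL4 or lipid signalling in macrophages were not called. Clec10a (chr11:69980125-69984338), a galactose-binding lectin, had log2 values of 6.60, 6.60, 6.61 and 6.70 without and 6.65, 6.69, 6.67 and 6.54 with IL4 (log2 fold change 0.01, standard error 0.034, adjusted p = 0.92). The lipid factor gene Pparg (chr6:115310969-115440419) had 5.36 ± 0.05 and 5.40 ± 0.04 (SD, n = 4; adjusted p = 0.33). Fabp4 (chr3:10204343-10208616), a fatty acid binding protein and PPAR-gamma target, had 3.94 ± 0.01 and 3.92 ± 0.01 (SD, n = 4; adjusted p = 0.32). Stat6 (chr10:127080042-127098043) itself had 12.06 ± 0.03 and 12.12 ± 0.04 (SD, n = 4; adjusted p = 0.12), and passed the threshold when libraries were centred on their median (adjusted p = 0.048). Ccl24 was under the filter, at -1.55 to -1.54 in the shKDM1A libraries.

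Genes of IL4 receptor signalling and its feedback were called higher in 11 of 29 members (8 without shKDM1A IL4 replicates 1 and 3) and lower in 4 (median 0.06), against 13.6% and 13.5% of all genes tested, so the falls were near the share over all genes. Nfil3 (chr13:53062578-53076408), a leucine zipper factor, rose from 8.43, 8.42, 8.27 and 8.25 to 8.88, 8.83, 8.98 and 8.70, by 0.50 (adjusted p = 2.7e-06). Jak2 (chr19:29326293-29387582), a kinase of the JAK family, rose from 9.14, 9.31, 9.14 and 9.08 to 9.55, 9.66, 9.54 and 9.56, by 0.41 (adjusted p = 7.5e-06). Socs1 (chr16:10783902-10785629), the inhibitor of JAK kinases that STAT6 induces, rose from 6.00, 6.09, 5.89 and 5.89 to 6.45, 6.36, 6.30 and 6.25, by 0.37 (standard error 0.053, adjusted p = 5.4e-05). Cish, another feedback inhibitor, rose by 0.19 (adjusted p = 1.2e-06) at a low level of 3.97 ± 0.01 to 4.16 ± 0.01 (SD, n = 4). The receptor chain Il4ra, at 5.60 ± 0.03 and 5.59 ± 0.06 (SD, n = 4), was not called (adjusted p = 0.86).

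Of 29 lineage transcription factors 11 rose and 5 fell, against 13.6% and 13.5% of all genes tested, the falls near that share. Beside the 3 Id genes, Bhlhe40 rose by 0.57 (adjusted p = 1.7e-09) while its close relative Bhlhe41 had a log2 fold change of -0.69 (adjusted p = 1.4e-08). Irf4 rose by 0.39 and Irf5 by 0.44, whereas Irf8 had -0.31 (adjusted p = 1.2e-06). Spi1, which encodes PU.1, was not called, at 0.08 (adjusted p = 0.064).

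Of 32 immediate-early transcription factors 14 rose and 9 fell (median 0.07), against 13.6% and 13.5% of all genes tested. Myc (chr15:61816896-61821916) rose from 6.23, 6.40, 6.25 and 6.37 to 6.93, 7.11, 7.02 and 6.91, by 0.68 (adjusted p = 9.8e-09). The AP-1 subunits moved unevenly, with Junb up by 0.45 (adjusted p = 1.7e-09) and Fos by 0.35 (adjusted p = 4.0e-08), and Fosl2 at -0.45 (adjusted p = 3.4e-08). Btg1 (chr10:96079635-96085445), an antiproliferative factor, went from 12.03, 11.93, 12.02 and 12.01 to 11.46, 11.48, 11.54 and 11.53 (log2 fold change -0.49, adjusted p = 5.2e-10). Among 19 ERK pathway feedback genes 3 rose and 6 fell, against 13.6% and 13.5% of all genes tested, the rises near that share. Ets2 (chr16:95924014-95942656), an ETS factor, had -0.56 (adjusted p = 4.5e-10) and the ERK phosphatase gene Dusp6 (chr10:98725865-98730123) had -0.45 (adjusted p = 1.1e-06), while Dusp1 (chr17:26642536-26645417), a phosphatase for p38 and JNK as well, rose by 0.40 (adjusted p = 2.1e-06).

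C-type lectins and scavenger receptors rose in 14 of 26 members and fell in 2 (median 0.13), against 13.6% and 13.5% of all genes tested. After Cd36 and Clec7a the largest rise was in Clec4a2 (chr6:123073334-123094017), from 7.92, 7.99, 7.84 and 7.91 to 8.49, 8.44, 8.55 and 8.64, by 0.61 (adjusted p = 1.6e-07), in a family with near copies such as Clec4a3 between which reads may be split. Scarb1, the HDL receptor, had a log2 fold change of -0.45 (adjusted p = 1.6e-09). Of 21 chemokine and chemokine receptor genes 5 rose and 6 fell, with the same background, and 3 rose without shKDM1A IL4 replicates 1 and 3 and 4 fell without replicates 2 and 4. Cxcl14, Ccl2 and Cxcl16 (by 0.50, adjusted p = 2.3e-09) rose, while Ccl9 (chr11:83386419-83392138) went from 13.22, 13.21, 13.23 and 13.25 to 12.72, 12.70, 12.73 and 12.67 (log2 fold change -0.52, adjusted p = 1.0e-10) and Ccl3 had -0.43. Of 25 interleukins and receptors 6 rose and 8 fell, and 4 fell without shKDM1A IL4 replicates 1 and 3, near the share over all genes. Both chains of the IL33 receptor rose, Il1rl1 (chr1:40496474-40522259) by 0.48 (adjusted p = 1.9e-09) and Il1rap (chr16:26581791-26717834, 12.1% of its exon length shared with an antisense gene) by 0.46 (adjusted p = 3.5e-06), and the IL1 receptor antagonist gene Il1rn (chr2:24200891-24207011) had -0.32 (adjusted p = 1.2e-05).

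Antigen presentation genes were examined by class, against 13.6% of all genes called higher and 13.5% lower. Of 11 MHC class II genes 3 rose and 1 fell. Cd74 (chr18:60963503-60972306), the invariant chain, had log2 values of 11.67, 11.56, 11.63 and 11.60 without and 12.48, 12.37, 12.53 and 12.39 with IL4, a rise by 0.83 (standard error 0.032, adjusted p = 1.0e-11). H2-DMa (chr17:34259777-34276046), a peptide exchange factor, rose by 0.25 (adjusted p = 0.00013) and Ifi30 (chr8:73286672-73290562), a lysosomal thiol reductase, by 0.12 (adjusted p = 0.0048, and 0.076 without IL4 replicates 1 and 3). Of 20 MHC class I genes 9 fell and 1 rose (median -0.08). The non-classical genes H2-T23 (chr17:36166922-36169646) and H2-M3 (chr17:37407179-37411430) had -0.27 (adjusted p = 0.00038) and -0.26 (adjusted p = 8.7e-06). H2-Q4 (chr17:35516562-35521619) had -0.17 (adjusted p = 0.0050), in a family whose members may share reads. Whether the 2 classes differ from each other was not tested.

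Prostanoid genes rose in 7 of 20 members and fell in 3, against 13.6% and 13.5% of all genes tested. Both cyclooxygenases rose. Ptgs2 (chr1:151947161-151955364), the inducible form, had log2 values of 8.00, 8.03, 8.08 and 8.12 without and 8.93, 8.97, 8.91 and 9.02 with IL4, a rise by 0.90 (standard error 0.035, adjusted p = 1.2e-11). The thromboxane synthase gene Tbxas1 rose by 0.35 (adjusted p = 1.7e-08). Hpgds (chr6:65067287-65094724), which makes prostaglandin D2, went from 10.36, 10.36, 10.43 and 10.32 to 9.93, 10.03, 9.92 and 9.98 (log2 fold change -0.41, adjusted p = 1.1e-08), and Alox5, the first enzyme of leukotriene synthesis, had -0.36 (adjusted p = 2.6e-06). In arginine and polyamine metabolism 7 of 21 genes rose and 4 fell, but 3 rose without shKDM1A IL4 replicates 1 and 3, near the share over all genes. Il4i1 (chr7:52091658-52096179), an amino acid oxidase induced by IL4, rose from 6.31, 6.33, 6.25 and 6.31 to 7.08, 7.11, 6.98 and 6.93, by 0.72 (adjusted p = 2.3e-10), and Ass1 (chr2:31325790-31376190), argininosuccinate synthase, by 0.25 (adjusted p = 3.3e-05).

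Sterol synthesis genes fell almost as a whole. Of 24 tested, 22 fell and the other 2 were not called, against 13.5% of all genes tested called lower and 13.6% called higher, with a median log2 fold change of -0.36, and the count was 22 or 23 under the 18 alternatives without a fold limit. Lss (chr10:75994350-76019884), lanosterol synthase, had log2 values of 11.57, 11.65, 11.55 and 11.62 without and 10.92, 10.94, 10.93 and 10.91 with IL4 (log2 fold change -0.67, standard error 0.023, adjusted p = 2.7e-12). Fdps (chr3:88897510-88905889), farnesyl diphosphate synthase, went from 13.32, 13.35, 13.31 and 13.32 to 12.75, 12.64, 12.73 and 12.61 (log2 fold change -0.64, adjusted p = 3.9e-11). Insig1 (chr5:28397952-28405202), which holds SREBP in the endoplasmic reticulum and is itself an SREBP target, went from 11.32, 11.30, 11.37 and 11.38 to 10.73, 10.65, 10.75 and 10.76 (log2 fold change -0.62, adjusted p = 4.1e-10). No IL4 library of these 3 genes reached a control library. The falls also included Dhcr7, of the last step to cholesterol, at -0.48 and the regulator Srebf2 at -0.26. The members not called were Ebp (-0.08, adjusted p = 0.068) and Hmgcs1 (-0.08, adjusted p = 0.80), the latter with an SD of 0.34 and 0.26 between libraries.

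Among 32 PPAR and LXR lipid targets 13 fell and 5 rose, against 13.5% and 13.6% of all genes tested, and 13 fell under each of the 18 alternatives without a fold limit. Scd1 and Abcg1 led the falls, with Scd2 at -0.63 (adjusted p = 5.5e-10), Acly, ATP citrate lyase, at -0.47, the fatty acid binding protein gene Fabp5 at -0.44 and the cholesterol transporter gene Abca1 at -0.28. Cd36 rose, as did Cpt1a, which takes fatty acids into mitochondria, by 0.36 (adjusted p = 2.6e-09), and Nr1h3, which encodes LXR-alpha, by 0.20 (adjusted p = 0.0017).

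Genes of the ATF4 and unfolded protein response fell in 26 of 35 members and rose in 1 (median -0.16), against 13.5% and 13.6% of all genes tested. The falls were 24 to 27 under the 18 alternatives without a fold limit. Trib3 (chr2:152163161-152169796), a pseudokinase induced by ATF4, went from 6.74, 6.81, 6.88 and 6.83 to 6.44, 6.46, 6.38 and 6.35 (log2 fold change -0.41, adjusted p = 4.0e-06). Edem1 (chr6:108778635-108809350), of endoplasmic reticulum degradation, went from 13.90, 13.91, 13.87 and 13.88 to 13.53, 13.55, 13.48 and 13.54 (log2 fold change -0.36, adjusted p = 6.3e-10), and Herpud1 (chr8:96910329-96919271) went from 10.40 ± 0.07 to 10.05 ± 0.09 (SD, n = 4; log2 fold change -0.35, adjusted p = 1.5e-05). The chaperone gene Hspa5 had -0.25 (adjusted p = 7.4e-08), Ddit3, which encodes CHOP, -0.25 (adjusted p = 0.00055), Xbp1 -0.15 (adjusted p = 0.00054) and Atf4 itself -0.26 (adjusted p = 9.6e-07). The chaperone gene Calr, at -0.06, was not called (adjusted p = 0.055).

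Inflammatory lists were read against the same background of 13.5% of all genes called lower and 13.6% higher. Of 30 NF-kB subunits and targets 12 fell and 4 rose, the rises near the share over all genes. Tnfsf9 (chr17:57244808-57247180), which encodes 4-1BB ligand, went from 9.63, 9.67, 9.67 and 9.67 to 9.00, 8.90, 8.93 and 8.99 (log2 fold change -0.71, adjusted p = 9.6e-12). Tnf had -0.44 (adjusted p = 4.4e-07). Nfkb1 (chr3:135247619-135354511), the p105/p50 subunit, rose from 11.69, 11.69, 11.65 and 11.69 to 12.20, 12.20, 12.20 and 12.22, by 0.52 (standard error 0.021, adjusted p = 1.2e-11), while Relb had -0.18, Nfkb2 -0.19 and Rela -0.09. Of 47 interferon-stimulated genes 13 fell and 2 rose (median -0.04), with Ifi44 (chr3:151393886-151412874) at -0.28 (adjusted p = 1.1e-05), Ifi27l2a (chr12:104680376-104681890), which shares exons with Ifi27l2b, at -0.25 (adjusted p = 0.0014) and Rtp4 (chr16:23610005-23614308) at -0.22 (adjusted p = 0.00031). The remaining 32 were not called.

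Growth and energy metabolism lists were read against the 13.6% of all genes called higher and the 13.5% called lower. Of 51 ribosome biogenesis genes 23 rose and 2 fell, with the largest log2 fold change in Myc and the others at 0.19 or less, as in Bop1 (chr15:76283418-76307679), of pre-rRNA processing, at 0.19 (adjusted p = 1.5e-05), and Polr1a (chr6:71859047-71929355), the large RNA polymerase I subunit, at 0.18 (adjusted p = 0.013, but 0.19 without IL4 replicates 2 and 4). Of 56 cell cycle and replication genes 20 rose and 4 fell, with 7 falls once the length trend was removed or libraries were quantile normalized and 6 without either pair of IL4 replicates. The mitotic activator gene Cdc20 (chr4:118105506-118109948) rose by 0.20 (adjusted p = 7.2e-05), whereas the G1 kinase gene Cdk6 (chr5:3343893-3531005) had -0.35 (adjusted p = 0.00045) and cyclin D1, Ccnd1 (chr7:152115836-152125830), -0.25 (adjusted p = 1.4e-08), the latter with 21.6% of its exon length shared with Oraov1. Of 33 glycolysis and hypoxia genes 12 rose and 7 fell. Hk3 (chr13:55107346-55122746), a hexokinase of myeloid cells, went from 10.66, 10.78, 10.77 and 10.78 to 10.20, 10.23, 10.17 and 10.21 (log2 fold change -0.55, adjusted p = 3.0e-09). Vegfa (chr17:46153943-46169326), a growth factor for vessels, had -0.36 (adjusted p = 7.4e-05), and Bnip3 (chr7:146082519-146101189), a mitophagy receptor, rose by 0.36 (adjusted p = 1.2e-05). Of 75 oxidative phosphorylation subunits 8 rose and 4 fell, and 63 were not called. Cyc1 (chr15:76173953-76176689), cytochrome c1, had 0.17 (adjusted p = 0.00025), Ndufa1 (chrX:34727584-34731233) -0.14 (adjusted p = 0.0052, and 0.063 without IL4 replicates 2 and 4) and Ndufs7 (chr10:79712194-79719539) 0.14 (adjusted p = 0.028, with overlapping libraries, and 0.37 without IL4 replicates 1 and 3). Both shares of this list were below those over all genes. It had 2 rises and 6 falls without IL4 replicates 1 and 3 and 17 rises and no called fall without 2 and 4, so the count depended on which libraries entered.

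Integrin, protease and adhesion genes rose in 12 of 29 members and fell in 7, against 13.6% and 13.5% of all genes tested. Beside Itgav and Itgb5, Itgal (chr7:134439774-134478651), the alpha chain of LFA-1, rose from 7.59, 7.54, 7.67 and 7.65 to 8.40, 8.34, 8.31 and 8.34, by 0.73 (adjusted p = 3.8e-10), and the sheddase gene Adam10 by 0.65 (adjusted p = 3.4e-11), while Itga4 had -0.55 (adjusted p = 1.1e-05). Of 19 osteoclast and cell fusion genes 8 rose and 4 fell. Myo10 (chr15:25552305-25743426), an unconventional myosin of filopodia, rose by 0.68 (adjusted p = 1.5e-07) and the osteoclast factor gene Nfatc1 (chr18:80844174-80909810) by 0.46 (adjusted p = 1.1e-08), while the fusion receptor gene Dcstamp (chr15:39577476-39592484) had -0.41 (adjusted p = 5.1e-09).

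Subunits of the complexes around KDM1A and of the NCoR/SMRT corepressor complex, where called, changed by small amounts. Of 18 KDM1A and CoREST complex genes 3 rose and 3 fell (1 without shKDM1A IL4 replicates 1 and 3), near the 13.6% and 13.5% of all genes tested and all by less than 0.2, with Gse1 (chr8:123012766-123105283) at 0.16 (adjusted p = 0.015), Rcor1 (chr12:112277577-112354113) at -0.14 (adjusted p = 0.0036) and Rcor3 (chr1:193922429-193961922) at -0.13 (adjusted p = 0.030). Gse1 shares 41.3% of its exon length with Gins2, and the calls of Gse1 and Rcor3 were lost, among other settings, without IL4 replicates 2 and 4 (Gse1, adjusted p = 0.18) and 1 and 3 (Rcor3, adjusted p = 0.39). Of 9 NCoR/SMRT complex genes 1 rose, Cops2 (chr2:125656038-125684818), by 0.07 (adjusted p = 0.020, and 0.22 without IL4 replicates 1 and 3). Kdm1b, the paralog of Kdm1a, had 0.06 and was not called.

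**Figure D4:**
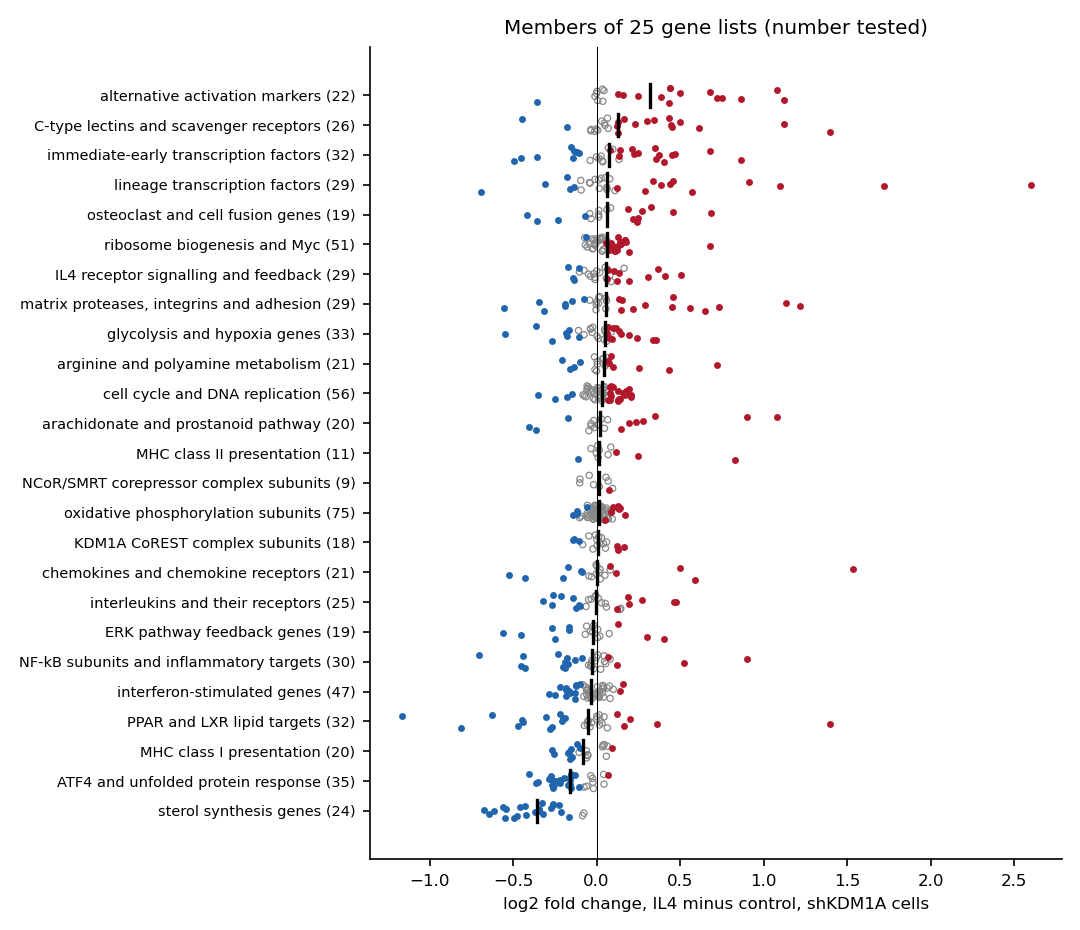
Log2 fold change with IL4 in shKDM1A cells (horizontal axis) of each tested member of 25 gene lists, 1 row per list in the order of its median (black bar), with red and blue points for members called higher and lower and open points for those not called. The lists run from alternative activation markers, with a median of 0.32, down to sterol synthesis genes, with -0.36.

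The IL4 response of the knockdown cells was then set beside that of shGFP cells. IL4 changed 3466 genes in shGFP cells, 1694 higher (13.1% of the genes tested) and 1772 lower (13.7%). Of the genes called in shKDM1A cells, 1863 were also called in the same direction in shGFP cells, 951 higher and 912 lower, which is 53.3% of the shKDM1A and 53.8% of the shGFP calls, and 65 were called in opposite directions. A gene called in only 1 line is not shown to differ, so the difference in response was tested itself. It was called for 791 genes, with 459 (3.56% of the genes tested) more positive and 332 (2.57%) more negative in shKDM1A cells. Of these, 530 had a called IL4 response in shKDM1A cells, with 145 a larger and 128 a smaller change of the same sign than in shGFP cells and 257 opposite signs, 65 of them called in both lines. Of the rest 250 were called in shGFP cells but not in shKDM1A cells, and 11 in neither.

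This comparison was the one most touched by exon length. Across genes, which are not independent replicates, the log2 fold change correlated with exon length by Spearman's rho of -0.19 in shKDM1A and 0.19 in shGFP cells, and the difference by -0.41. Of genes up to 1000 bases 3.72% had a positive and 0.238% a negative difference called, and of genes over 6000 bases 0.762% and 4.50%. With the length trend removed from each library, 438 positive and 308 negative differences were called, and 599 genes were shared with the values as deposited in the same direction. Without shKDM1A IL4 replicates 1 and 3, 348 differences were called (311 shared), and without replicates 2 and 4, 2282 (755 shared). The genes described next, the 5 with the most positive and the 5 with the most negative difference among those with a called IL4 response in shKDM1A cells, kept their call under all 3 of these settings.

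The 5 most negative differences among genes changed by IL4 in shKDM1A cells were those of Aldh1l2, Pck2, Mrc1, Ptgs1 and Asns. Aldh1l2 (chr10:82950192-82996885), mitochondrial formyltetrahydrofolate dehydrogenase, had log2 values of 8.93, 8.83, 8.91 and 8.96 without and 8.57, 8.80, 8.68 and 8.68 with IL4, a log2 fold change of -0.23 (adjusted p = 0.0018). In shGFP cells it rose from 8.32 ± 0.08 to 9.21 ± 0.06 (SD, n = 4), by 0.89. The difference was -1.12 (standard error 0.068, adjusted p = 8.7e-08). Pck2 (chr14:56159103-56168857), mitochondrial phosphoenolpyruvate carboxykinase, had 10.25, 10.21, 10.19 and 10.22 without and 10.14, 10.07, 10.06 and 10.03 with IL4, a log2 fold change of -0.14, against a rise by 0.85 in shGFP cells (difference -1.0, standard error 0.045, adjusted p = 4.0e-09). Asns (chr6:7625165-7643209), asparagine synthetase, had 11.61, 11.62, 11.62 and 11.59 without and 11.48, 11.42, 11.48 and 11.43 with IL4, a log2 fold change of -0.16, against a rise by 0.45 in shGFP cells (difference -0.61, standard error 0.034, adjusted p = 3.6e-08). In all 3 the direction was opposite in the 2 lines, and shKDM1A cells had the higher level without and the lower level with IL4.

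These 3 are known ATF4 targets, and the list of ATF4 and unfolded protein response genes held 13 negative and 3 positive differences among 35 members, against 2.57% and 3.56% of all genes. Under the 25 alternatives without a fold limit 12 to 15 differences were negative and 0 to 9 positive, with 0 positive without shKDM1A IL4 replicates 1 and 3 and 9 without replicates 2 and 4. Trib3 had a difference of -0.58 (adjusted p = 7.5e-05), Chac1, a glutathione-degrading enzyme gene, -0.39 (adjusted p = 0.00053) and Mthfd2, of mitochondrial folate metabolism, -0.25 (adjusted p = 0.00039). The positive differences were in Hspa5 (0.13), Xbp1 (0.14) and Calr (0.15), of the unfolded protein response, which fell in shGFP cells by 0.38, 0.30 and 0.21. In shGFP cells 11 members of the list rose and 16 fell, against 13.1% and 13.7% of all genes. Further genes of amino acid supply were chosen after their negative differences were seen. They come from no fixed list, and genes of this kind without a difference were not counted. Gpt2, alanine aminotransferase 2, had log2 fold changes of -0.20 in shKDM1A and 0.31 in shGFP cells (difference -0.52, adjusted p = 4.5e-06). The amino acid transporter genes Slc6a9 and Slc1a4 had differences of -0.45 (adjusted p = 0.00030) and -0.52 (adjusted p = 9.9e-05), and the serine synthesis gene Psph -0.32 (adjusted p = 0.00023). Of the exon length of Slc6a9 43.9% overlaps Ccdc24 on the other strand. The tRNA synthetase genes Lars, Cars, Nars, Aars, Iars and Mars had log2 fold changes of -0.19 to -0.09 in shKDM1A cells and of 0.09 to 0.24 in shGFP cells, each called in both lines, while Sars had -0.20 in shKDM1A cells and 0.02 in shGFP cells, the latter not called (adjusted p = 0.51).

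Mrc1 and Ptgs1 rose in both lines and less in the knockdown. The Mrc1 log2 value without IL4 was alike in both lines (5.50 ± 0.03 in shKDM1A and 5.51 ± 0.02 in shGFP cells, SD, n = 4), and with IL4 it reached 6.00 ± 0.06 and 6.83 ± 0.06 (SD, n = 4), a difference in response of -0.82 (standard error 0.046, adjusted p = 3.6e-08). Ptgs1 began at 6.69 ± 0.09 in shKDM1A and 7.90 ± 0.03 in shGFP cells and reached 7.77 ± 0.03 and 9.68 ± 0.06 (SD, n = 4), a difference in response of -0.69 (standard error 0.053, adjusted p = 1.2e-06). As its levels without IL4 differ between the lines and moderation acts more on the lower one, the size and also the direction of the Ptgs1 difference can depend on the moderated scale, and counts were not used here. Flt1 rose by 0.75 in both lines (difference -0.0003, adjusted p = 1.0), and for Egr2 the difference was -0.04 (standard error 0.068, adjusted p = 0.76). Cd36, which reached 13.56 ± 0.01 and 13.58 ± 0.04 with IL4 from 12.16 ± 0.03 and 11.84 ± 0.02 (SD, n = 4), and the macrophage marker Adgre1 rose less in shKDM1A cells, with differences of -0.33 (adjusted p = 8.4e-06) and -0.33 (adjusted p = 0.0012), and so did Socs1, at -0.33 (adjusted p = 0.015, and 0.062 with no filter on low values), and Tgfbr1, at -0.53 (adjusted p = 4.3e-05). Adgre1 and Tgfbr1 were chosen after their values were seen.

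The 5 most positive differences were those of Pdcd1, Id3, Vegfc, Scd1 and Cd14. Pdcd1 (chr1:95934882-95949130), the checkpoint receptor PD-1, had log2 values of 6.43, 6.35, 6.28 and 6.44 without and 7.31, 7.29, 7.24 and 7.26 with IL4, a rise by 0.90 (adjusted p = 1.9e-10) against 0.20 in shGFP cells (difference 0.70, standard error 0.063, adjusted p = 8.0e-06). Vegfc (chr8:55162886-55271808), a lymphatic growth factor, had 6.94, 7.06, 6.87 and 6.93 without and 7.67, 7.71, 7.71 and 7.54 with IL4, a rise by 0.71 against 0.15 (difference 0.55, standard error 0.060, adjusted p = 5.4e-05). Id3 began lower in shKDM1A cells (7.42 ± 0.10 against 8.42 ± 0.10) and rose further, to 10.01 ± 0.02 against 10.33 ± 0.04 (SD, n = 4; difference 0.69, adjusted p = 2.2e-05). The limit stated for Ptgs1 holds for Pdcd1 and Vegfc, which also differ between the lines without IL4. For Id3 the line with the lower level had the larger rise, and the size of its difference can depend on the moderated scale.

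The other positive differences were smaller falls. Cd14 (chr18:36884718-36886469), the lipopolysaccharide coreceptor, had log2 values of 14.57, 14.52, 14.52 and 14.55 without and 14.12, 14.05, 14.13 and 14.06 with IL4, a log2 fold change of -0.45 (adjusted p = 3.0e-10). In shGFP cells it went from 14.62 ± 0.02 to 13.69 ± 0.03 (SD, n = 4), by -0.93, so the shKDM1A IL4 libraries all lay above the shGFP IL4 libraries (difference 0.48, standard error 0.032, adjusted p = 2.8e-07). Scd1 had -1.17 against -1.70 (difference 0.53, adjusted p = 5.4e-05) and Scd2 -0.63 against -1.06 (difference 0.43, adjusted p = 7.6e-05). Of the sterol synthesis genes Fdps (0.23, adjusted p = 0.0028) and Lss (0.13, adjusted p = 0.025, and 0.088 without shKDM1A IL4 replicates 1 and 3) had a called difference with the values as deposited, while the median IL4 response of the list was -0.36 in shKDM1A and -0.46 in shGFP cells. The count of 2 was 1 to 5 under the 25 alternatives without a fold limit. It was 5 with the length trend removed and 4 without shKDM1A IL4 replicates 2 and 4. The lysozymes Lyz1 and Lyz2, near copies that may share reads, were chosen after their values were seen. They had -0.25 and -0.12 in shKDM1A cells against -0.62 and -0.53 in shGFP cells (differences 0.37 and 0.42, adjusted p = 0.00019 and 2.9e-05). Without IL4, Lyz1 was at 16.27 ± 0.05 in shKDM1A and 13.41 ± 0.03 in shGFP cells (SD, n = 4). Lyz2 was at 17.16 ± 0.02 and 16.90 ± 0.03 (SD, n = 4).

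**Figure D5:**
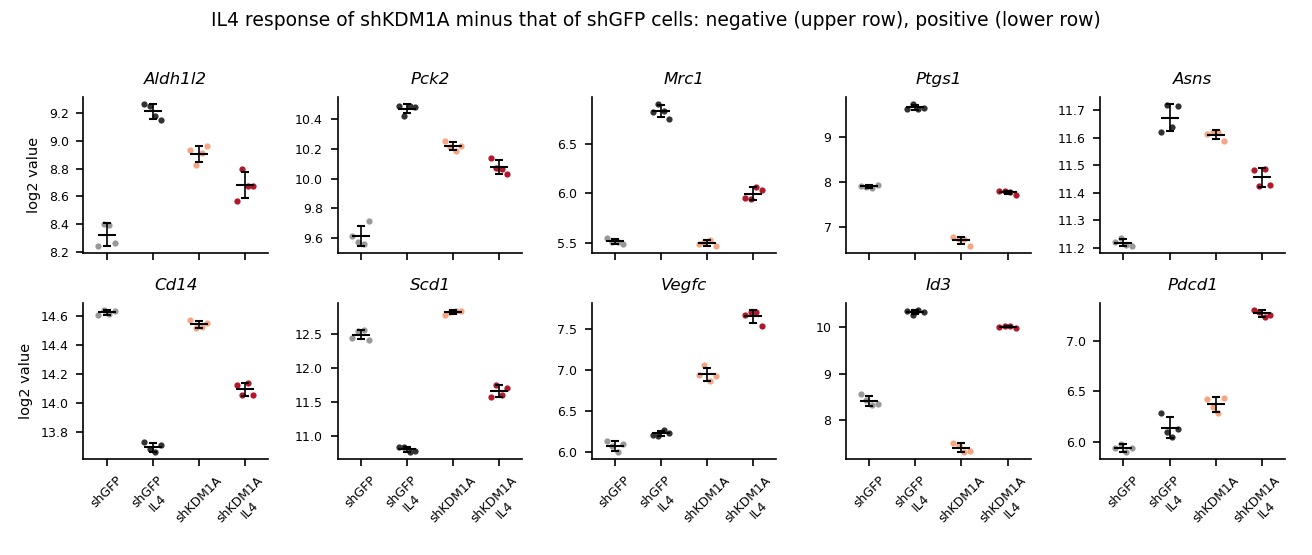
Deposited log2 values (vertical axis) in each of the 16 libraries, 1 point per library with the mean and SD (bar) of each group, for the 5 genes with the most negative (upper row) and the 5 with the most positive (lower row) difference in IL4 response. Aldh1l2, Pck2 and Asns rise with IL4 in shGFP and fall in shKDM1A cells, and Cd14 falls less in shKDM1A cells (by 0.45 against 0.93 on the log2 scale).

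Differences in inflammatory and glycolytic lists stand against 3.56% of all genes with a positive and 2.57% with a negative difference called. Of 47 interferon-stimulated genes 12 had a positive difference called, and in shGFP cells 26 of the list fell against 13 in shKDM1A cells, beside 13.7% and 13.5% of all genes called lower. Usp18, the interferon response inhibitor, had log2 values of 10.88, 10.83, 10.87 and 10.87 without and 10.84, 10.70, 10.82 and 10.75 with IL4 in shKDM1A cells (log2 fold change -0.08, adjusted p = 0.066) and -0.41 in shGFP cells (difference 0.33, adjusted p = 0.00039). Slfn2 had -0.06 against -0.41 (difference 0.35, adjusted p = 4.6e-05) and Rtp4 -0.22 against -0.54 (difference 0.32, adjusted p = 0.0017). Usp18 and Slfn2 were chosen after their values were seen. The count of 12 was 4 without shKDM1A IL4 replicates 1 and 3 and also 4 with no filter on low values. The interferon genes Usp18, Rtp4 and Ifi44 were higher in shKDM1A than in shGFP cells already without IL4 (10.86 ± 0.02 against 9.57 ± 0.06, 10.52 ± 0.05 against 9.41 ± 0.06, and 12.08 ± 0.02 against 10.60 ± 0.02, SD, n = 4). Of 30 NF-kB genes 11 had a positive and 1, Rel, a negative difference. Traf1, a TNF receptor adaptor, had -0.23 against -0.61 (difference 0.38, adjusted p = 0.00073), Tnfsf9 -0.71 against -0.92 (difference 0.22, adjusted p = 0.0032), and Nfkb1 rose by 0.52 against 0.33 (difference 0.19, adjusted p = 0.00089). Of 33 glycolysis and hypoxia genes 11 had a positive and 2 a negative difference, and the positive count was 4 to 14 under the 25 alternatives without a fold limit, with 4 without shKDM1A IL4 replicates 1 and 3. Ldha, lactate dehydrogenase A, rose by 0.15 in shKDM1A cells against -0.08 in shGFP cells (difference 0.22, adjusted p = 0.00073), and the lactate exporter gene Slc16a3 by 0.10 against -0.17 (difference 0.27, adjusted p = 0.00029).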

How the data were processed

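RNA of shGFP and shKDM1A RAW264.7 cells with and without IL4 (4 libraries each) was sequenced. The authors aligned the reads to mm9 with HISAT2 and Bowtie2, counted them over exons of RefSeq genes on both strands with HOMER, and processed the counts with DESeq2 (versions are not given in the sources used here). The authors deposited log2 values per gene and library, moderated for low counts, and these were used as they stand. The table also holds columns of the authors with fold changes of group comparisons and their p-values, raw and adjusted, which were not used, and a table of bone marrow macrophages with the same kind of columns was not used here. Because no counts were used, count models were not run. The study states that its experiments used biological replicates. No label says that the replicates of this experiment came from separate cultures, so p-values measure only the spread between these libraries.

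Genes with a log2 value of at least 1 in at least 4 of 16 libraries were tested (12905 of 25094). limma 3.58.1 in R 4.3.3 was fitted to the means of the 4 groups (16 libraries, 12 residual df, prior df 3.59) with Benjamini-Hochberg adjustment over all genes tested and a threshold of 0.05. The contrasts were IL4 minus control in shKDM1A cells, the same in shGFP cells, and their difference, and the IL4 contrasts of the lines share no library. The test was checked on simulated data with independent noise for each gene and library. These data held no shift with exon length, so the check does not cover that shift. Named genes were Kdm1a, genes of IL4 signalling that the study discusses, the 10 largest rises and falls without overlap between groups, the 5 largest differences each way among genes with a called IL4 response, and the 3 called members of each of 25 lists with the largest change. Some genes that this rule or the lists hold are not reported here. Other genes named were chosen after their values were seen. The members and lists were chosen with earlier results of these data known. Promoters came from RefSeq (GRCm38.p6) and were matched by symbol. Tables and figures were made with Python 3.11.15, pandas 2.3.3, numpy 2.4.6 and matplotlib 3.10.9. The alternatives were other filters, quantile normalization, median centring, a prior variance with a trend, a replicate block, leaving out each replicate, a fold limit and the shKDM1A groups alone. Removing a length trend (span 0.3) and leaving out a pair of shKDM1A IL4 replicates were added after the data were seen.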

Additional observations from a re-analysis of the deposited data

Results flagged for a closer look

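In 8 groups of 4 libraries of the named genes (184 groups were checked, and chance gives about 1 in 20) the lowest or highest library stood apart, with a gap to the nearest library over the range of the group above Dixon's critical value for 4 values. Without IL4, 1 shKDM1A library stood apart for Clec10a (highest, 6.70 against 6.60 to 6.61, gap over range 0.832), Cd36 (lowest, 12.11, 0.879), Tnfsf9 (lowest, 9.63, 0.908), Hk3 (lowest, 10.66, 0.862) and Vegfa (lowest, 8.09, 0.853). With IL4, it did so for Ptgs1 (lowest, 7.72 against 7.78 to 7.79, 0.95), Jak2 (highest, 9.66, 0.833) and Il1rl1 (lowest, 9.95, 0.855).

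Some of the 92 named genes were chosen for the size of their difference in IL4 response, so a count among them is not an independent rate. Of all genes tested, 3.56% had a positive and 2.57% a negative difference called. For 34 of the 92 named genes the IL4 response, as a log2 fold change, differed between the lines by the limma test of the difference. Among those reported, the difference, shKDM1A minus shGFP, was negative for Aldh1l2 (-1.12), Pck2 (-1.0), Mrc1 (-0.82), Ptgs1 (-0.69), Asns (-0.61), Trib3 (-0.58), Sema5a (-0.42), Slc40a1 (-0.41), Cd36 (-0.33), Socs1 (-0.33), Pmepa1 (-0.26), Hk3 (-0.25) and Nfatc1 (-0.18). It was positive for Pdcd1 (0.70), Id3 (0.69), Vegfc (0.55), Scd1 (0.53), Cd14 (0.48), Rtp4 (0.32), Btg1 (0.29), Dmpk (0.29), Clec4a2 (0.26), Fdps (0.23), Tnfsf9 (0.22), Il1rn (0.20), Ifi44 (0.20), Abcg1 (0.19), Ptgs2 (0.19), Nfkb1 (0.19), Cyc1 (0.18), Lss (0.13), Bop1 (0.13) and Fabp4 (0.10). The part of the moderated scale, of exon length and of the hairpin in these differences was not separated beyond the settings given with the processing.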

How the results depend on the processing

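The count of genes changed by IL4 in shKDM1A cells stayed within 1.5 times of 3497 under other filters, centring, quantile normalization, a trended prior variance, a replicate block and the shKDM1A groups alone, with 2774 (without shKDM1A IL4 replicates 1 and 3) to 3863 (without shKDM1A IL4 replicates 2 and 4). It was 141 (84 higher, 57 lower) with an absolute log2 fold change over 0.5 also required, and called list members were 41 then, against 346. Median centring gave 2025 higher and 1560 lower. Leaving out 1 replicate gave 3018 to 3539 genes (1498 to 1754 higher, 1520 to 1789 lower) and 311 to 346 list members. The difference between the lines was less stable. It was called for 791 genes, for 431 with no filter (253 positive, 178 negative), 348 without shKDM1A IL4 replicates 1 and 3 (177 positive, 171 negative), 2282 without replicates 2 and 4 (1099 positive, 1183 negative) and 17 with an absolute difference over 0.5 (4 positive, 13 negative). The cause was not tested beyond the removal of the length trend (746). Leaving out 1 replicate gave 530 (without shGFP IL4 replicate 3) to 1104 (without shKDM1A IL4 replicate 2), with 300 to 611 positive and 228 to 493 negative. The main fit did not pair libraries by replicate number. Deviations of same-numbered libraries correlated by -0.343 to 0.273. As the deviations also moved with exon length, these correlations cannot tell whether the libraries were paired. With the replicate block 3459 IL4 responses (3306 shared in direction) and 732 differences (657 shared) were called. The fold limit was applied to these counts only. Of 2501 values of the named genes under the other alternatives 2362 kept direction and call, 138 lost and 1 gained the call, and no direction was reversed. IL4 calls were lost in some of these alternatives for Cops2, Gse1, Ifi30, Ndufa1, Ndufs7, Polr1a and Rcor3, and called differences, among others, for Bop1, Clec4a2, Cyc1, Fabp4, Ifi44, Il1rn, Lss, Nfatc1, Pmepa1, Ptgs2, Sema5a and Socs1. Low values limit what moderated log2 values can show.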

Other observations

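Some macrophage surface and lysosomal genes, chosen after their values were seen, moved in both directions. Of the macrophage markers tested 4 rose and 7 fell, and not all of them are given here. Adgre1, a macrophage surface marker gene, rose by 0.90 on the log2 scale in shKDM1A cells (adjusted p = 2.2e-11) and Csf1r, the receptor for the macrophage growth factor CSF1, by 0.28, while Mpeg1, a pore-forming protein gene of phagocytes, had -0.78. Of the exon length of Csf1r 22.6% overlaps Hmgxb3 on the other strand. Itgam, Tyrobp and Ptprc had -0.19, -0.13 and -0.11, and Cd68 was not called, at -0.03 (adjusted p = 0.32).

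Zfp36l1, an mRNA decay factor gene, had log2 values of 7.44, 7.47, 7.28 and 7.26 without and 7.44, 7.51, 7.39 and 7.40 with IL4 in shKDM1A cells (log2 fold change 0.07, adjusted p = 0.38), and rose by 0.44 in shGFP cells from 8.66 ± 0.07 to 9.10 ± 0.09 (SD, n = 4). The difference was -0.37 (adjusted p = 0.0082), and 56.1% of its exon length overlaps a gene on the other strand. Il13ra1, a chain of the type II IL4 receptor, had 0.06 in shKDM1A cells (adjusted p = 0.30) and -0.20 in shGFP cells (adjusted p = 0.00082), with a difference of 0.26 (adjusted p = 0.010). Cxcl10, an interferon-induced chemokine gene, had 0.08 and -0.22, with a difference of 0.30 (adjusted p = 0.027).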
